A study of Mus musculus with 12 samples.

Results

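The DNA replication machinery was read as 48 genes, chosen by name for their place at the replication origin or fork, with earlier results of these data known. They are 48 of the 18193 genes that the arrays read through a probe set, a group of short oligonucleotides for a transcript, annotated with a single gene symbol. Each gene was read by its brightest such probe set over all 12 arrays, no filter on low values was applied, and all 48 were measured and tested.

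The arrays compared mouse acute myeloid leukaemia cell lines that withstand Ara-C with the sensitive lines they came from. B117H, labelled resistant, was derived from B117P, labelled sensitive, and B140H, labelled resistant, from B140P, labelled sensitive, with 3 arrays per line lettered A, B and C. All 4 lines go back to BXH-2 mice, a recombinant inbred strain that develops myeloid leukaemia through retroviral insertions, and no further allele is labelled. The labels give the same exposure to rising Ara-C and the same passage in ASM medium without the drug for every array, the parental lines included. Each lineage holds a single resistant line, so resistance and any other difference between a resistant line and its parent cannot be told apart. Nothing states that the letters are separate cultures, so each p-value reflects the spread among these arrays alone, which may be technical.

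Replication starts where the origin recognition complex, Cdc6 and Cdt1 load the Mcm2 to Mcm7 helicase onto DNA, a step that geminin (Gmnn) inhibits by binding Cdt1. The kinase Cdc7 with Dbf4, together with Mcm10, Cdc45 and the GINS complex, turns the loaded helicase into an active fork, where DNA polymerase alpha-primase lays primers, replication factor C loads the Pcna clamp, and polymerases epsilon and delta extend the strands. Ara-C (cytarabine) is a cytidine analogue that these polymerases incorporate in place of deoxycytidine and that then slows chain extension. In cycling cells many of these genes are transcribed in late G1 phase through E2F factors.

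Levels are given as log2 of the deposited intensity plus 1, and a change is the mean level of the resistant line minus that of its parent. A gene was called where the adjusted p of limma's moderated test, two-sided and adjusted by Benjamini-Hochberg over all 45037 probe sets tested, was under 0.05. The median intensity per array lay between 118 and 131, and the correlation was 0.988 to 0.997 within a line and 0.954 to 0.993 between lines. In RNA from whole cultures, fewer cells with a transcript and less transcript per cell cannot be told apart. Of 12 myeloid markers, Ptprc, Spi1, Cebpa, Prtn3, Ctsg, Csf2rb and Myb averaged 10.03 or more in every line. However, 10 of the 12 were called lower in B140P than in B117P, against 11.8% of all genes. Among these, the progenitor markers Kit and Cd34 averaged 5.53 and 5.22 in B140H and 5.15 and 5.36 in B140P, against 10.51 and 12.82 in B117H and 10.11 and 12.71 in B117P. Of 6 B-lymphoid markers 4 were called higher in B140P than in B117P and 0 lower, against 12% and 11.8% of all genes. Ebf1 and Cd79b averaged 9.71 and 11.43 in B140H and 9.66 and 10.84 in B140P, against 5.44 and 5.99 in B117H and 5.79 and 6.74 in B117P. Vpreb1 averaged 10.19 in B140H and 11.59 in B140P, against 12.08 in B117H and 9.30 in B117P, so that B117H was highest. Pax5 (7.42 to 7.70) and Ms4a1 (6.30 to 6.43) had similar means in the 4 lines.

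To show what the genes share in sequence, promoters were taken from RefSeq (GRCm38.p6) as the 250 bases before and the 50 bases from each start site, and 39 of the 48 genes matched with 49 promoters. Prim2, Mcm4, Rfc2, Gins4, Pole, Gins2, Gins1, Gmnn and Tipin had no entry. A perfect match on either strand to TTTCCCGC, TTTCGCGC, TTTGCCGC or TTTGGCGC, the forms of the E2F motif searched, with overlapping matches counted separately, was present in 17 of the 49 promoters (34.7%). Of all 32851 promoters in the table, 744 (2.26%) held such a match, and of 9258 promoters with a GC content between the lower and upper quartile of the replication promoters 347 (3.75%) did. The motif was found for 16 of the 39 genes, among them 5 of 10 that were called in at least 1 resistant line and 11 of 29 that were called in neither. The motif CCAAT was found in 46.9% of the replication promoters and in 37.4% of all promoters. A match describes the letters and is not evidence of binding.

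The 5 called genes with an E2F match, spread over the helicase, GINS, polymerase epsilon and clamp loader, are printed 5′ to 3′ in the direction of the gene, with the matches in capitals. They lie at chr1:20820263-20820562 on the minus strand (Mcm3), chr5:138171834-138172133 on the minus strand (Mcm7), chr8:95633309-95633608 on the plus strand (Gins3), chr12:69228141-69228440 on the minus strand (Pole2) and chr5:151651159-151651458 on the minus strand (Rfc3). For Mcm7 the table holds a further promoter, without a match.
Mcm3: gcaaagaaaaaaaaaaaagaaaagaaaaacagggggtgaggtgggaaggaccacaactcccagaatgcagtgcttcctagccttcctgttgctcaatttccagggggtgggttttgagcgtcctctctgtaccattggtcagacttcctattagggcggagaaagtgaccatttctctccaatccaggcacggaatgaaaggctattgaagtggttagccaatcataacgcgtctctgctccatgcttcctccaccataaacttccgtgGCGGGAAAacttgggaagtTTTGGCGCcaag
Mcm7: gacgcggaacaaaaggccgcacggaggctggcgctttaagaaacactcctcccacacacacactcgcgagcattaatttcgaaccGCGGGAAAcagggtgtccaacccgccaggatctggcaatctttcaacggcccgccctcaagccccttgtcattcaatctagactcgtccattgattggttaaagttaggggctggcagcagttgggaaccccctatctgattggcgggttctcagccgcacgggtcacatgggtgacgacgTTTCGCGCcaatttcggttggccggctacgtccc
Gins3: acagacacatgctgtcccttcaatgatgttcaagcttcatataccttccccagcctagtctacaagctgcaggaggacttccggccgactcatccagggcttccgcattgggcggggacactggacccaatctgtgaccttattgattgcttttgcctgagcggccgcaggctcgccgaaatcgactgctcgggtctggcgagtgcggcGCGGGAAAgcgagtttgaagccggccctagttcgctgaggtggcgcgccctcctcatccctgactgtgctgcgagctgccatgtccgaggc
Pole2: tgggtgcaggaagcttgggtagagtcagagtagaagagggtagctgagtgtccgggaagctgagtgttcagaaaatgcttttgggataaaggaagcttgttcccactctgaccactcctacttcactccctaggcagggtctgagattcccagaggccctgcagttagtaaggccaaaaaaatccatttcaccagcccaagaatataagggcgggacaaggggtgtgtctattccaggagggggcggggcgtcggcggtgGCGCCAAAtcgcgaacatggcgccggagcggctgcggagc
Rfc3: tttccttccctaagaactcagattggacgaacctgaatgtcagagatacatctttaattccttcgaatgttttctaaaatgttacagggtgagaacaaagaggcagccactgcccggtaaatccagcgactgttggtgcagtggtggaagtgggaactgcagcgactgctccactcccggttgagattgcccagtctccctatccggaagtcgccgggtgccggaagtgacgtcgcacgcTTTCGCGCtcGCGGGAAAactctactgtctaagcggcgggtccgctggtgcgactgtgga
In Gins3 the match began 41 bases before the start site, and in Mcm7 the 2 matches began 165 bases before it and at base 17 counted from it. The matches of Mcm3 (bases 20 and 39) and of Pole2 (base 11) lay downstream of the start, and in Rfc3 2 matches on opposite strands were separated by 2 bases at the start site itself.

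In B117H, 10 of the 48 replication genes (20.8%) were called, 9 higher and 1 lower, against 9.41% of all genes called either way, 4.73% called higher and 4.68% called lower. The 9 were Prim2, Pole, Pole2, Gins3, Rfc3, Rfc5, Mcm3, Prim1 and Mcm10, and the gene called lower was Gmnn. Among the 6766 genes at least as bright as the dimmest replication gene, 15.3% were called and 6.89% were called higher. The median change of the 48 genes was 0.16, against -0.01 over all genes and 0.03 over those bright genes. All 3 B117H arrays lay above all 3 B117P arrays for 22 genes (45.8%), against 13.7% of all genes and 21.6% of the bright ones, and below them for 3 genes, against 12.5% of all genes, with overlap for the other 23. At an unadjusted p under 0.05, 20 of the 48 passed, a count given without the share of all genes that passed.

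In B140H, 5 of the 48 (10.4%) were called, all higher, against 6.56% of all genes called either way, 2.81% called higher and 3.75% called lower. The 5 were Rfc2, Timeless, Mcm7, Rfc5 and Rpa1. Among the bright genes 11.2% were called and 4.91% were called higher. The median change was 0.17, against 0.05 over all genes and 0.02 over the bright genes. With each array centred on its own median these medians were 0.13 for the replication genes and 0.01 for all genes. The B140H arrays all lay above the B140P arrays for 22 genes (45.8%), against 13.7% of all genes and 22.2% of the bright ones, and all below for 2, against 10% of all genes. The letters were read as pairs for the B140 arrays, from correlations in these data and not from the labels, but no fit paired these arrays alone. The count of 5, and the B140H intervals and calls of single genes below, come from fits without the letters. With the letter as a replicate block shared by the arrays of both lineages, which is not a pairing of the B140 arrays alone, the limma count was 10, all higher. Under that block the share of all genes called was 10% in place of 6.56%. The genes added were Mcm3 (adjusted p = 0.0433), Cdt1 (0.0452), Gins2 (0.00797), Rfc3 (0.0458) and Fen1 (0.0169). Leaving out the B140P array A reduced the count to 1, and leaving out B140H array B, B140P array B or B140P array C reduced it to 3.

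**Figure D1:**
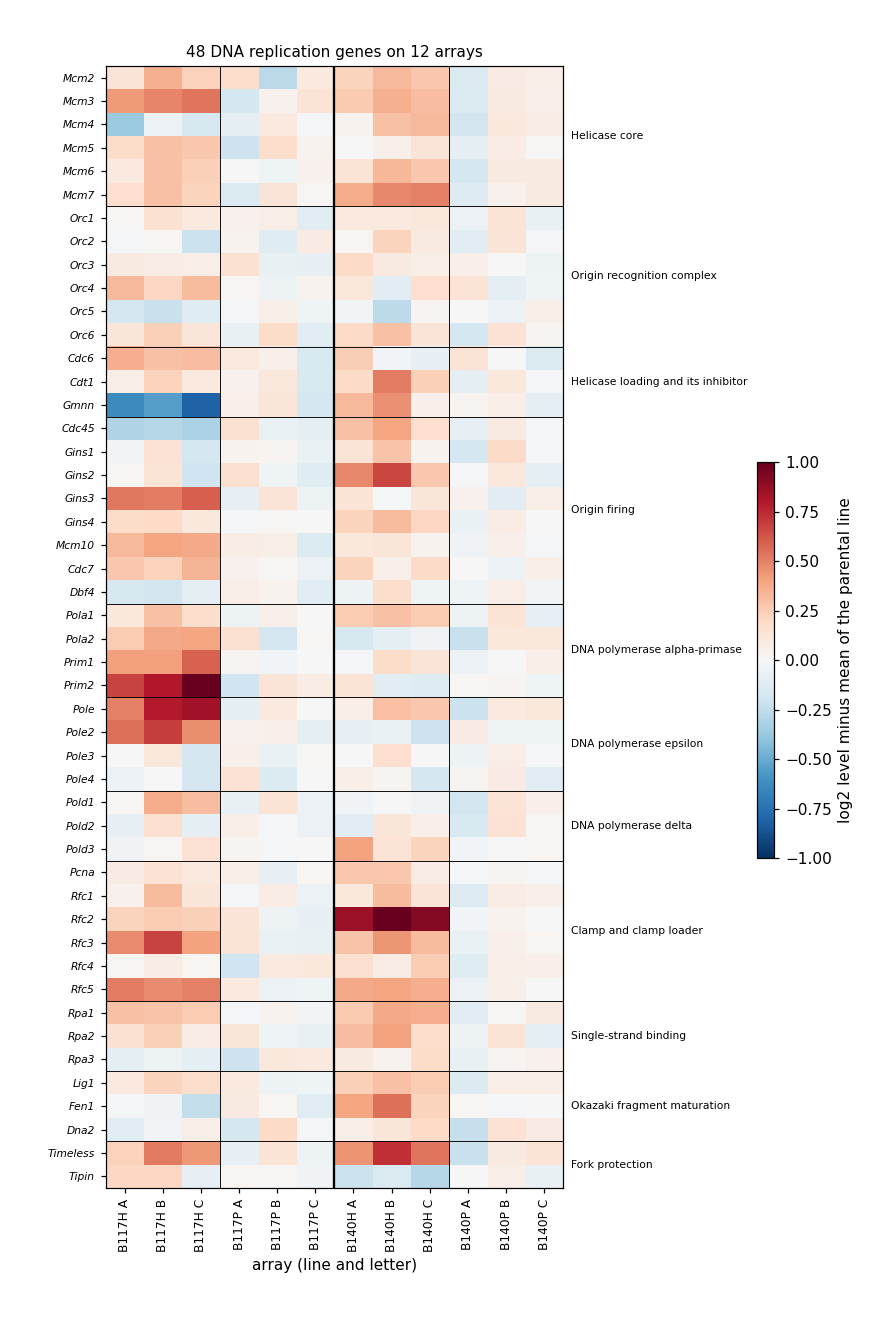
Heat map of the 48 genes (rows, grouped by role) on the 12 arrays (columns), coloured by log2 level minus the mean of the parental line of that lineage. Changes averaged above 0 (red) for 34 genes in B117H (70.8%) and 41 in B140H (85.4%), against 48.5% and 62.7% of all genes. Among genes at least as bright as the dimmest replication gene, the shares were 54.9% and 53.7%. Prim2 was the darkest red in B117H, Rfc2 in B140H, and Gmnn the darkest blue, in B117H.

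Rfc5 was the only replication gene called in both resistant lines by its brightest probe set, against 0.324% of all genes called higher in both that way. A further 8 were called higher in B117H alone and 4 in B140H alone, against 4.41% and 2.49% of all genes, and 34 were called in neither, against 85.5% of all genes. Estimates were above 0 in both lines for 29 of the 48, against 28.3% of all genes. In the average of both changes, which uses the same arrays again, 12 of the 48 were called and all were higher, against 7.86% of all genes called either way and 3.69% called higher. Among the bright genes 12.8% were called and 5.63% were called higher. These 12 were among the 14 genes called in at least 1 line, the exceptions being Pole2 and Gmnn. Such a call does not need a change in each line, and of the 12 only Rfc5 was called in both by its brightest probe set. For Mcm3, Mcm7 and Rpa1 a dimmer probe set was called higher in both lines. Prim2 changed by 0.84 in B117H and -0.03 in B140H, the only estimate below 0 among the 12, and Gins3 by 0.55 and 0.08. For Prim2, Gins3 and Rfc2 the difference between the lines was itself called. The average call of Mcm10 ended on leaving out any array but B117P array A (limma adjusted p between 0.0583 and 0.121). That of Prim1 ended without B117H array C (0.0595), B117P array B (0.0523), B140P array A (0.0593) or B140P array B (0.0577).

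**Figure D2:**
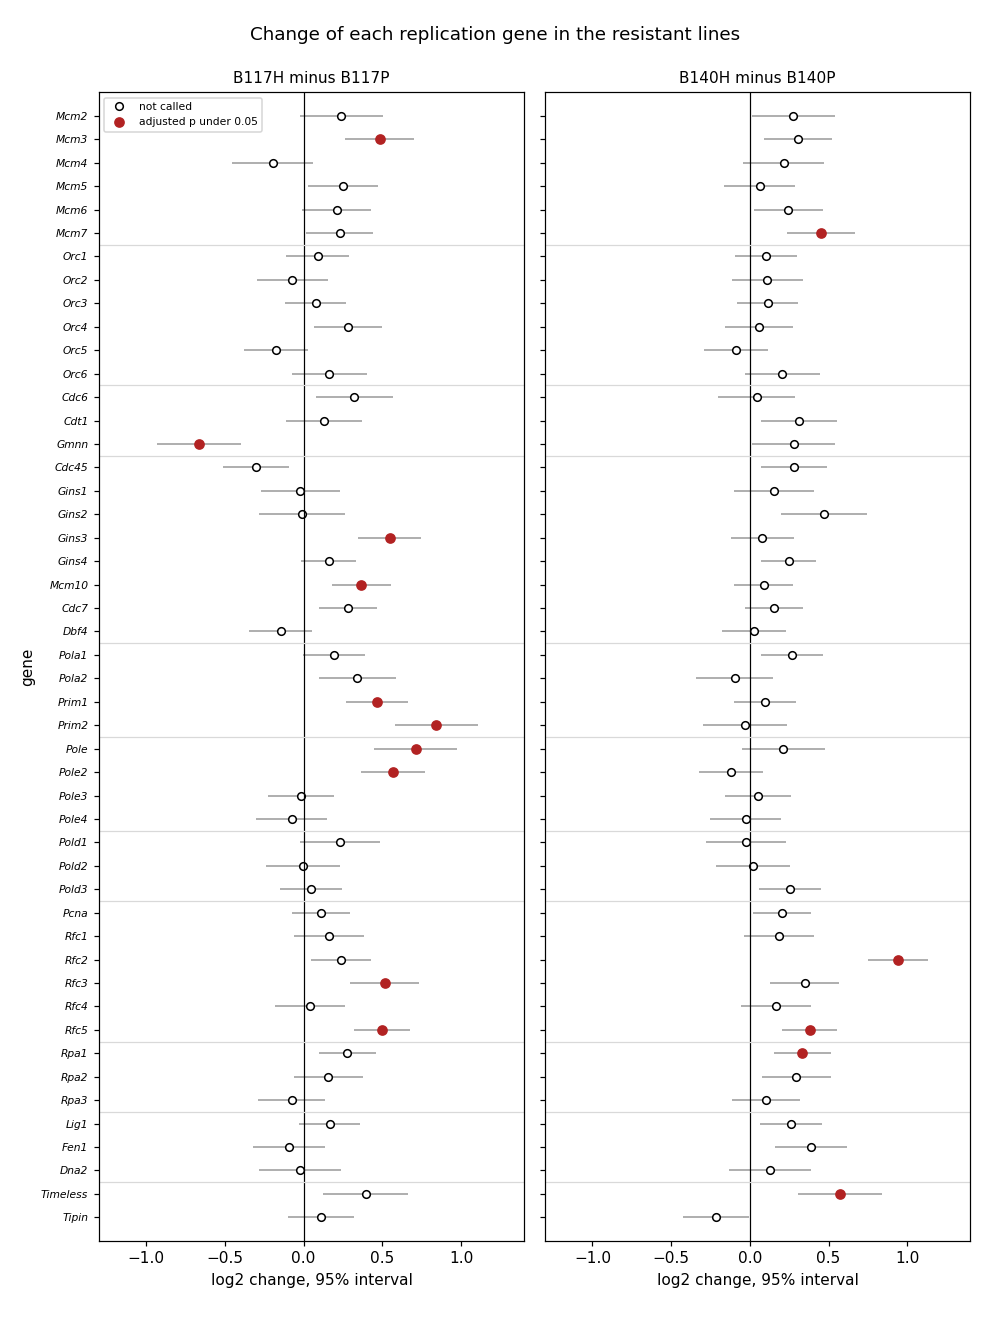
Log2 change of each gene, resistant minus parental, with its 95% interval from the limma fit, for B117H (left) and B140H (right). Filled points are calls at an adjusted p under 0.05, which number 10 in B117H, with Gmnn the only one left of 0, and 5 in B140H.

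Among the 6 genes of the helicase core, Mcm3 was called in B117H and Mcm7 in B140H, and the median change of the 6 was 0.23 in B117H and 0.26 in B140H. Mcm3 levels were 13.03, 13.09 and 13.14 in B117H, against 12.42, 12.64 and 12.73 in B117P, so the groups did not overlap. The change was 0.48 (95% interval 0.26 to 0.70, 1.4-fold, limma adjusted p = 0.00974), and 2 of the 4 other Mcm3 probe sets were called too, at 0.48 (adjusted p = 0.0218) and 0.57 (0.0111). In B140H Mcm3 levels were 12.63, 12.72 and 12.68, against 12.23, 12.46 and 12.42 in B140P. That change of 0.31 (0.09 to 0.52) was not called, although another of its probe sets was called at 0.48 (limma adjusted p = 0.0436).

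Mcm7, whose promoter carries an E2F match on either side of its start site, had levels of 13.68, 13.79 and 13.82 in B140H, against 13.18, 13.36 and 13.40 in B140P. The change was 0.45 (0.24 to 0.67, 1.37-fold, limma adjusted p = 0.0186), and the 3 other Mcm7 probe sets read 0.66 (0.00868), 0.62 (0.002) and 0.40 (0.112). The call ended without B140H array C (0.0568), B140P array A (0.0978) or B140P array B (0.0544). In B117H Mcm7 changed by 0.23 (0.01 to 0.44), which was not called, although a further probe set was called at 0.46 (0.0483). The other 4 subunits, Mcm2, Mcm4, Mcm5 and Mcm6, were called in neither line, and Mcm4 had the only estimate below 0, -0.20 (-0.46 to 0.06) in B117H.

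None of the 6 origin recognition genes was called by its brightest probe set in either resistant line. Their changes ranged between -0.17 (Orc5) and 0.28 (Orc4) in B117H and between -0.09 (Orc5) and 0.21 (Orc6) in B140H. Dimmer probe sets of Orc3 (0.41, limma adjusted p = 0.0378) and Orc4 (0.38, 0.0341) were called higher in B140H. The helicase loaders Cdc6 and Cdt1 were not called either. Cdc6 changed by 0.32 (0.08 to 0.57) in B117H and 0.04 (-0.20 to 0.29) in B140H, and Cdt1 by 0.13 (-0.11 to 0.37) in B117H and 0.31 (0.07 to 0.55) in B140H.

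Gmnn, which keeps Cdt1 from loading further helicases within a cell cycle, was the only replication gene called lower in a resistant line. Its levels were 11.49, 11.58 and 11.32 in B117H, against 12.17, 12.25 and 11.95 in B117P, with no overlap. The change was -0.67 (-0.93 to -0.40, limma adjusted p = 0.00431), and no single array decided the call. In the other lineage Gmnn levels were 12.45, 12.59 and 12.18 in B140H, against 12.16, 12.20 and 12.04 in B140P, and the groups overlapped. The B140H change of 0.28 (0.01 to 0.54) was not called, and the difference between the 2 changes was 0.94 (0.57 to 1.32, adjusted p = 0.00442).

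Origin firing was represented by 8 genes, of which Gins3 and Mcm10 rose in B117H and none was called in B140H. Gins3, a subunit of the GINS complex that joins the helicase, had levels of 9.31, 9.30 and 9.38 in B117H, against 8.70, 8.91 and 8.73 in B117P. The change was 0.55 (0.34 to 0.75, 1.46-fold, limma adjusted p = 0.00255), and its other probe set read 0.56 (0.0774). In B140H its levels were 8.92, 8.77 and 8.91, against 8.83, 8.68 and 8.85 in B140P, which overlap. Mcm10, which helps to activate the helicase, had levels of 10.43, 10.50 and 10.48 in B117H, against 10.18, 10.16 and 9.97 in B117P. That change of 0.37 (0.18 to 0.55, adjusted p = 0.0194) ended as a call without B117H array B (0.0767), B117H array C (0.0724) or B117P array C (0.0977), in a fit of the B117 arrays alone (0.0616), and on averaging its 3 probe sets (0.842).

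Cdc45, the helicase cofactor, was called in neither line, and its estimates had opposite signs. Its levels were 9.81, 9.82 and 9.80 in B117H, against 10.26, 10.04 and 10.02 in B117P, and 9.80, 9.90 and 9.67 in B140H, against 9.43, 9.59 and 9.50 in B140P. Neither pair of groups overlapped, the changes being -0.30 (-0.51 to -0.09) in B117H and 0.28 (0.07 to 0.49) in B140H. The difference between them was 0.58 (0.29 to 0.88, limma adjusted p = 0.0194), a call that ended without B140P array A (0.0559) and on averaging its 2 probe sets (0.18). Gins2 changed by 0.47 (0.20 to 0.75, adjusted p = 0.0535) in B140H and by -0.01 (-0.29 to 0.26) in B117H.

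DNA polymerase alpha-primase, the enzyme that makes the RNA-DNA primers, had both of its primase genes called in B117H and none called in B140H. The median change of its 4 genes was 0.41 in B117H and 0.03 in B140H. Prim2, the large primase subunit, had levels of 11.36, 11.49 and 11.73 in B117H, against 10.48, 10.81 and 10.76 in B117P. Its change of 0.84 (0.58 to 1.11, 1.79-fold, limma adjusted p = 7.7e-04) was the largest in B117H among the 48, and no single array decided the call. A probe set of nearly the same mean brightness, 10.87 against 10.88, read 0.68 without being called (adjusted p = 0.114). In the other lineage Prim2 levels were 10.81, 10.57 and 10.55 in B140H, against 10.69, 10.70 and 10.63 in B140P, so the groups overlapped, and the difference between the 2 changes was -0.87 (-1.25 to -0.50, adjusted p = 0.00705).

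Prim1, the catalytic primase subunit, had levels of 12.12, 12.12 and 12.30 in B117H, against 11.74, 11.68 and 11.72 in B117P. The change was 0.47 (0.27 to 0.67, 1.38-fold, limma adjusted p = 0.00618), and a second probe set read 0.37 (0.177). In B140H Prim1 changed by 0.10 (-0.10 to 0.29), and the difference between the 2 changes, -0.37 (-0.65 to -0.09, adjusted p = 0.115), was not called. The polymerase subunits Pola1 and Pola2 were not called in either line, with B117H changes of 0.19 and 0.34.

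Of the 4 genes of polymerase epsilon, which extends the leading strand, Pole and Pole2 were called in B117H and none was called in B140H. The catalytic gene Pole had levels of 10.70, 10.99 and 11.04 in B117H, against 10.11, 10.29 and 10.19 in B117P, without overlap. The change was 0.71 (0.45 to 0.98, 1.64-fold, limma adjusted p = 0.00264), read by the only probe set of the gene. In B140H Pole levels were 10.77, 10.99 and 10.97, against 10.49, 10.80 and 10.81 in B140P, and the change of 0.21 (-0.05 to 0.48) was not called. The difference between the 2 Pole changes, -0.50 (-0.87 to -0.13, adjusted p = 0.116), was not called either.

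Pole2, the accessory subunit, had levels of 11.43, 11.57 and 11.34 in B117H, against 10.92, 10.93 and 10.79 in B117P. The change was 0.57 (0.37 to 0.77, 1.48-fold, limma adjusted p = 0.00193). A dim second probe set, at a mean level of 5.64, read 0.22, and their average was not called (0.139). In B140H Pole2 levels were 11.19, 11.20 and 11.06, against 11.35, 11.23 and 11.23 in B140P, all below the parental arrays, with a change of -0.12 (-0.32 to 0.08) that was not called. The difference between the changes was -0.69 (-0.97 to -0.40, adjusted p = 0.0058), lost as a call on averaging both probe sets (0.149). The small subunits Pole3 and Pole4 and the 3 genes of polymerase delta, which extends the lagging strand, were called in neither line. Among these 5 the changes in B117H lay between -0.07 (Pole4) and 0.23 (Pold1), and in B140H between -0.03 (Pole4) and 0.25 (Pold3).

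**Figure D3:**
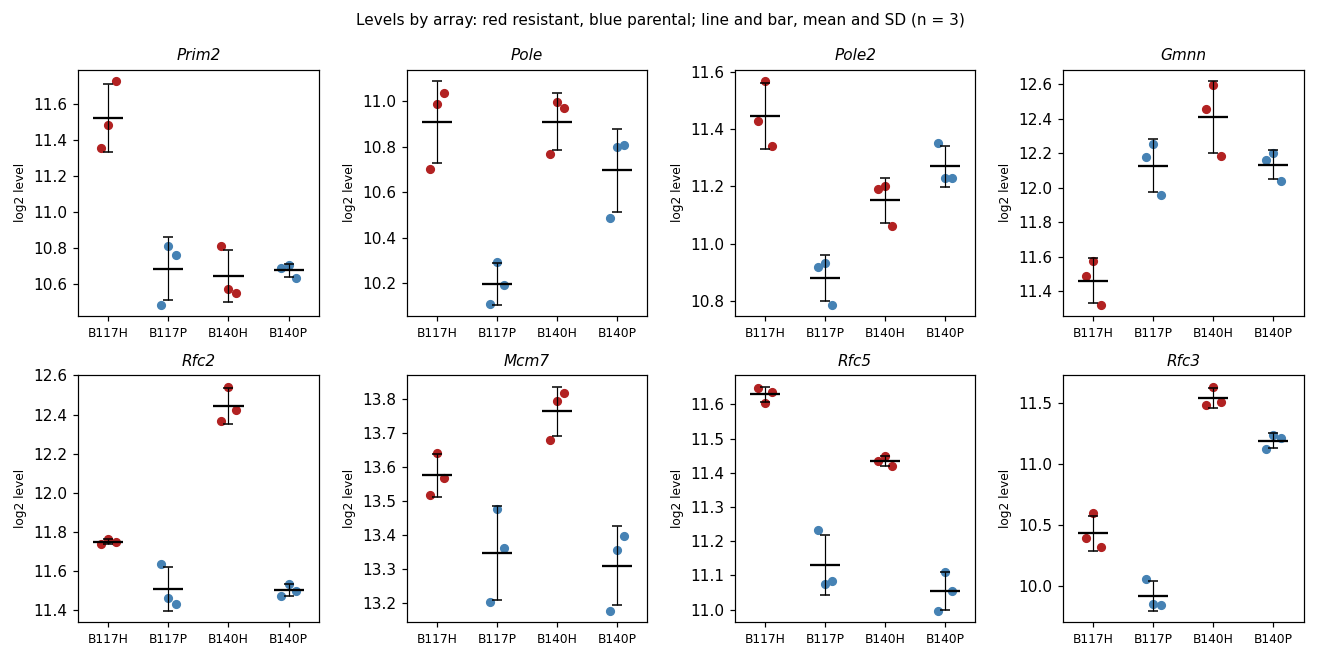
Log2 level of 8 genes on each array, with resistant arrays in red and parental arrays in blue, and line and bars giving mean and SD (n = 3). The y axes do not start at 0; Rfc2 in B140H stands 0.94 above B140P, Prim2 in B117H 0.84 above B117P, and Gmnn in B117H 0.67 below B117P.

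The clamp loader, which opens the Pcna ring and places it on primed DNA, held calls in both resistant lines. Rfc2, one of its small subunits, had levels of 12.37, 12.54 and 12.42 in B140H, against 11.47, 11.54 and 11.50 in B140P. The change of 0.94 (0.75 to 1.13, 1.92-fold, limma adjusted p = 5.2e-05) was the largest in B140H among the 48. Both of its other probe sets were called there as well, at 0.97 (8.8e-05) and 0.79 (7.3e-04), and no single array decided the call. In B117H Rfc2 levels were 11.74, 11.76 and 11.75, against 11.64, 11.46 and 11.43 in B117P. That change of 0.24 (0.05 to 0.43) was not called, and the difference between the changes was 0.70 (0.43 to 0.97, adjusted p = 0.00357).

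Rfc5, a further small subunit, had levels of 11.65, 11.60 and 11.64 in B117H, against 11.23, 11.08 and 11.08 in B117P, and 11.43, 11.45 and 11.42 in B140H, against 11.00, 11.11 and 11.06 in B140P. Neither pair of groups overlapped. The change was 0.50 (0.32 to 0.67, 1.41-fold, limma adjusted p = 0.00187) in B117H and 0.38 (0.20 to 0.56, 1.3-fold, adjusted p = 0.0166) in B140H, both read by the only probe set of the gene. The B140H call ended without B140P array A (0.0836) or B140P array C (0.0646) and in a fit of the B140 arrays alone (0.0858).

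Rfc3 levels were 10.39, 10.59 and 10.32 in B117H, against 10.06, 9.85 and 9.84 in B117P. The change was 0.51 (0.30 to 0.73, 1.43-fold, limma adjusted p = 0.0066), and its second probe set was called at 0.49 (0.0207). In B140H the levels were 11.48, 11.63 and 11.50, against 11.12, 11.24 and 11.21 in B140P, without overlap. That change of 0.35 (0.13 to 0.57, adjusted p = 0.0783) was not called, and a second probe set read 0.41 (0.0734). Rfc1, Rfc4 and Pcna, the clamp itself, were called in neither line by their brightest probe sets, with changes between 0.04 (Rfc4) and 0.16 (Rfc1) in B117H and between 0.16 (Rfc4) and 0.20 (Pcna) in B140H. A dimmer Rfc1 probe set was called in B117H at 0.44 (limma adjusted p = 0.0295).

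Rpa1, the large subunit of the single-strand binding protein that coats unwound DNA, had levels of 12.85, 12.97 and 12.96 in B140H, against 12.49, 12.61 and 12.69 in B140P. The change of 0.33 (0.15 to 0.51, 1.26-fold, limma adjusted p = 0.0395) ended as a call on leaving out any array except B117P array A (adjusted p between 0.0535 and 0.186). A second Rpa1 probe set was called in both lines, at 0.43 (0.0491) in B140H and 0.48 (0.02) in B117H, where the brightest read 0.28 (0.0717). Rpa2 and Rpa3 were not called.

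Timeless, which with Tipin holds helicase and polymerase together at the fork, had levels of 11.28, 11.56 and 11.37 in B140H, against 10.61, 10.92 and 10.97 in B140P. The change was 0.57 (0.30 to 0.84, 1.49-fold, limma adjusted p = 0.0182), ended as a call without B140H array B (0.0674) or B140P array A (0.0899). In B117H the levels were 10.96, 11.25 and 11.15, against 10.64, 10.86 and 10.67 in B117P, and the change of 0.40 (0.13 to 0.67, adjusted p = 0.0876) was not called. Tipin was not called in either line and its B140H estimate was below 0, at -0.21 (limma adjusted p = 0.33). Of the genes that finish Okazaki fragments, the flap nuclease Fen1 changed by 0.39 (0.16 to 0.62, adjusted p = 0.0567) in B140H and -0.09 (-0.32 to 0.13) in B117H, and the ligase Lig1 and the nuclease Dna2 were not called.

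The difference between the lineages, tested as the B140 change minus the B117 change, was called for 6 of the 48 genes (12.5%). That share was near the 10.4% of all genes called either way (4.91% above 0, 5.51% below 0) and below the 17.3% of the bright genes. It was above 0 for Gmnn, Rfc2 and Cdc45 and below 0 for Prim2, Pole2 and Gins3. The Gins3 difference, -0.47 (-0.75 to -0.18, limma adjusted p = 0.0489), ended as a call on leaving out any array except B117P array B (adjusted p between 0.0536 and 0.126). The differences of Gmnn, Rfc2, Prim2 and Pole2 were called with each single array left out. For the other genes called in 1 line only, among them Pole, Rfc3, Mcm3, Mcm7, Prim1, Timeless and Rpa1, the difference between the lines was not called.

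The parental lines differed from each other in 14 of the 48 genes (29.2%), 7 higher and 7 lower in B140P than in B117P, against 23.8% of all genes called either way (12% higher, 11.8% lower) and 38.5% of the bright genes. Because these arrays also enter both resistant-line changes, the values are given side by side and not correlated. Rfc3 differed most, at 11.12, 11.24 and 11.21 in B140P, against 10.06, 9.85 and 9.84 in B117P, a difference of 1.27 (1.05 to 1.49, 2.42-fold, limma adjusted p = 9.5e-07), and 1.31 (2.7e-06) by its second probe set. Pola2 (0.60), Pole (0.50), Orc5 (0.43), Cdc7 (0.41), Tipin (0.41) and Pole2 (0.39) were also higher in B140P. The origin recognition genes Orc6 (-0.62), Orc3 (-0.58) and Orc2 (-0.33) were lower in B140P, as were Pole3 (-0.61), Cdc45 (-0.60), Dna2 (-0.42) and Rpa2 (-0.37). The share of genes called lower in B140P was 25.8% on chromosome 4 (Orc3, Pole3 and Rpa2) and 25.1% on 16 (Cdc45). It was 23.9% on 1 (Orc2), 15.2% on 8 (Orc6) and 8.09% on 10 (Dna2). The share called higher was 25.3% on chromosome 9 (Tipin) and 21% on 12 (Pole2). It was 14.2% on 5 (Rfc3, Pole, Orc5 and Cdc7) and 11.9% on 19 (Pola2). The part of chromosomal position in these differences was not tested.

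Rfc3, Pole and Pole2 were higher in B140P than in B117P and rose in B117H. Both comparisons use the same B117P arrays. The mean levels of the resistant lines were 11.54 in B140H and 10.43 in B117H for Rfc3. They were 10.91 in B140H and 10.91 in B117H for Pole, and 11.15 in B140H and 11.45 in B117H for Pole2. For 4 of these parental calls a single array mattered. Pole lost its call without B140P array B (0.0522) or C (0.0531), and Dna2 without B117P array B (0.123), B117P array C (0.0643) or B140P array A (0.128). Rpa2 lost its call without B117P array A (0.0805), B140P array A (0.0752) or B140P array C (0.0948), and Orc2 without any of 8 arrays (limma adjusted p between 0.0511 and 0.183), namely B117H A and B, B117P A and C, B140H A and C, and B140P A and C. On averaging all probe sets of a gene the differences of Pola2 (0.27), Pole2 (0.414), Dna2 (0.344), Orc2 (0.0687) and Rpa2 (0.0548) were not called.

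More than 1 probe set was available for 36 of the 48 genes. Of the genes called by the brightest probe set, 7 in B117H and 4 in B140H had a next-brightest one, and in all of these the next one had an estimate of the same sign. It was itself called for 2 of the 7 (Mcm3 and Rfc3) and for 3 of the 4 (Rfc2, Mcm7 and Rpa1).

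**Figure D4:**
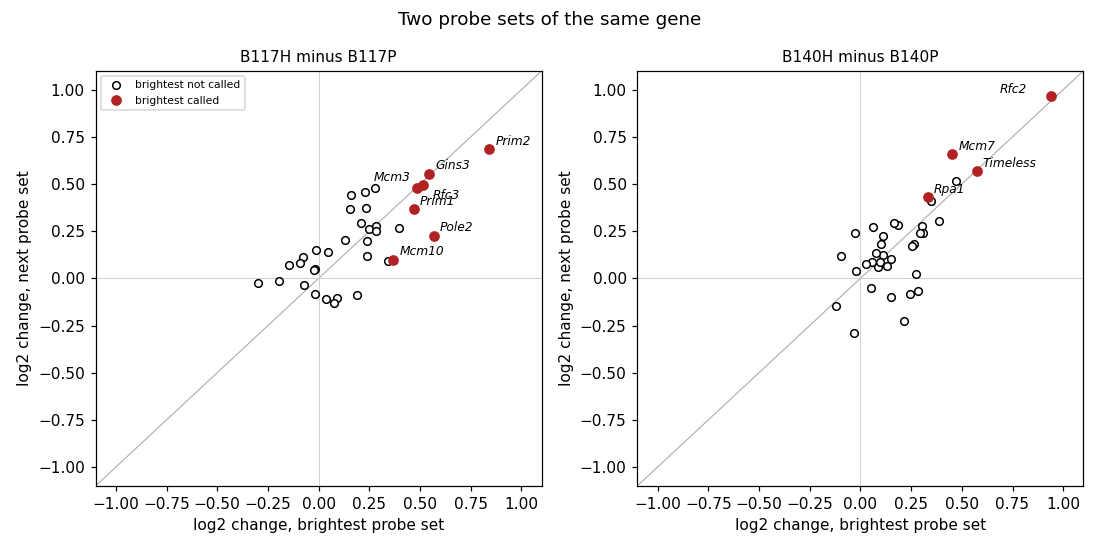
Log2 change of the brightest probe set (x axis) against that of the next brightest probe set of the same gene (y axis) for 36 genes, with the diagonal marking equal values. Genes called by the brightest probe set are filled and named: all 7 in B117H and all 4 in B140H lie above 0 on both axes.

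The genes next to a called gene on the chromosome were read as well, up to 5 measured genes on either side in the order of the GRCm38.p6 annotation. Around Rfc2, on chromosome 5, 6 of 10 neighbours were called higher in B140H (Gtf2ird2, Ncf1, Gtf2i, Lat2, Eif4h and Limk1), with a median change of 0.43. Around Mcm7, also on chromosome 5, 4 of 10 were called higher in B140H (Cops6, Taf6, Cnpy4 and Lamtor4), with a median of 0.39. Over the whole of chromosome 5, 88 of 1131 genes (7.78%) were called higher in B140H, against 2.81% of all genes. Rfc5 lies on this chromosome too, and 1 of its 10 neighbours (Fbxo21) was called higher in B140H. Timeless, on chromosome 10, had 3 of 10 called higher in B140H (Apon, Apof and Stat2), and Rpa1, on chromosome 11, had 2 (Rtn4rl1 and Smyd4), with medians of 0.12 and 0.10. Of all genes on these chromosomes 3.01% and 2.55% were called higher in B140H.

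Around Gmnn, on chromosome 13, 4 of 10 neighbours were called lower in B117H (Ripor2, BC005537, Acot13 and Tdp2), with a median of -0.27. Over the whole of chromosome 13, 21.6% of the genes were called lower in B117H, against 4.68% of all genes. Pole2, on chromosome 12, had 3 of 10 called higher in B117H (Dnaaf2, Klhdc1 and Nemf), with a median of 0.16, and of the 624 genes of that chromosome 143 (22.9%) were called higher, against 4.73% of all genes. In B140H 2 of the 10 Pole2 neighbours were called lower (9330151L19Rik and Arf6) and 0 higher, with a median of -0.17. There 6.57% of the chromosome 12 genes were called lower and 0.481% higher, against 3.75% and 2.81% of all genes. Cdc45, whose difference between the lines was called, lies on chromosome 16, where 3 of its 10 neighbours (Ufd1, Mrpl40 and Hira) and 20.9% of the genes were called lower in B117H. Mcm4, itself not called, lies there too, and 5 of its 10 neighbours were called lower in B117H, with a median of -0.34. Tipin, also not called, had 1 of 10 called lower in B140H (Rab11a), with a median of -0.25. On its chromosome 9, 13.3% of the genes were called lower in B140H, against 3.75% of all genes. Around Gins3 2 of 10 neighbours were called lower in B117H (Csnk2a2 and 4930513N10Rik), opposite to the gene itself, and around Mcm10 1 was called higher (Camk1d).

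Around Prim2, Pole, Prim1, Mcm3, Rfc5 and Rfc3 no neighbour was called in B117H, and the neighbour medians lay between -0.05 and 0.06. Over the whole of chromosome 1 (Prim2 and Mcm3) 7.22% of the genes were called higher and 2.16% lower in B117H. These shares were 3.09% and 8.93% on chromosome 5 (Pole, Rfc5 and Rfc3) and 5.09% and 2.54% on chromosome 10 (Prim1), against 4.73% and 4.68% of all genes. Rfc3 had 5 measured neighbours in place of 10. The part of chromosomal position in these changes was not tested.

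**Figure D5:**
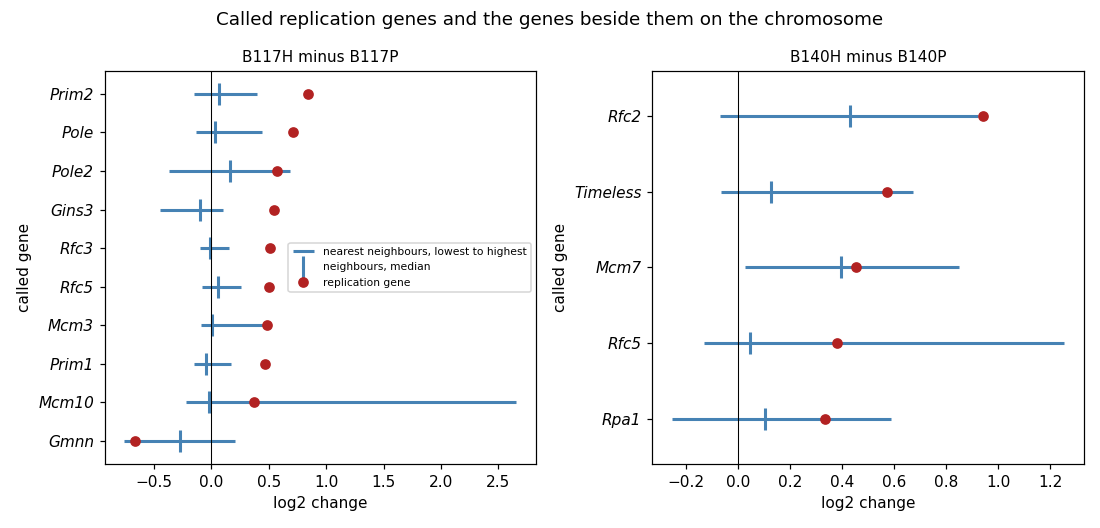
Log2 change of each called replication gene (red point) with the range (bar) and median (tick) of its measured chromosomal neighbours, for B117H (left) and B140H (right). The neighbour medians of Rfc2 and Mcm7 in B140H are 0.43 and 0.39, and that of Gmnn in B117H is -0.27.

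Other genes of DNA replication were read from lists of related factors. For each list the background is the share of all genes called, 4.73% higher and 4.68% lower in B117H and 2.81% higher and 3.75% lower in B140H. Of 27 measured fork and origin factors outside the 48, 3 were called higher and 0 lower in B117H, namely Dscc1, a subunit of an alternative clamp loader (0.88, limma adjusted p = 0.0013), Clspn, the checkpoint mediator at the fork (0.43, 0.0195), and Wdhd1, which links polymerase alpha to the helicase (0.40, 0.0222). In B140H limma called 0 of the 27 and 8 had an unadjusted p under 0.05, without a share of all genes to set beside the 8. The medians were 0.18 in B117H and 0.08 in B140H.

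Of 12 measured chromatin assembly genes, 1 was called in B117H and 2 in B140H. The fork-protection partner Mms22l rose in B117H (0.59, limma adjusted p = 0.00531). In B140H the histone chaperone Asf1b rose (0.49, 0.0163) and the maintenance methyltransferase Dnmt1 fell (-0.34, 0.0447). Of 12 genes that supply deoxynucleotides, thymidylate synthase Tyms (0.67, 0.00361) and the ribonucleotide reductase subunit Rrm2 (0.50, 0.00567) rose in B117H. In B140H limma called 0 of these 12 and 2 had an unadjusted p under 0.05, again without a share of all genes for that threshold. The median of this list was -0.02 in B117H and 0.09 in B140H.

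Markers of cell types moved in the same comparisons. Of all genes, 4.73% were called higher and 4.68% lower in B117H, and 2.81% higher and 3.75% lower in B140H. A summed intensity mostly follows the brightest markers of its list, such as Mpo, with a mean level of 14.04 in B117H and 14.62 in B117P. Of 12 myeloid markers 3 fell in B117H (Elane, Prtn3 and Ctsg), with summed intensities of 76428 to 80919 in B117H, against 89889 to 102559 in B117P, and 1 fell in B140H (Mpo), with 35825 to 36658 in B140H, against 38072 to 40014 in B140P. Of 6 monocyte markers Adgre1 rose and Lyz2 and Cd14 fell in B117H (sums of 6172 to 7397 in B117H, against 9592 to 10975 in B117P), and Cd68 rose in B140H (3584 to 4700 in B140H, against 2469 to 4355 in B140P). Of 6 B-lymphoid markers Vpreb1 rose and Cd79b fell in B117H (3990 to 5278 in B117H, against 919 to 1344 in B117P), and Vpreb1 fell in B140H (5272 to 6295 in B140H, against 4883 to 7249.5 in B140P). Of 6 stromal markers Pdgfrb rose in B117H (733 to 877 in B117H, against 570 to 691 in B117P), and no T-lymphoid or erythroid marker was called in either line. Intensities have no true zero, so no marker can be given as absent. The part of these differences in the replication gene changes was not tested.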

How the data were processed

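RNA of 4 mouse leukaemia cell lines was read on 12 one-colour arrays, 3 per line. The deposited table holds 1 intensity per probe set and array on a linear scale, between 7.65 and 36675, and the authors made it with RMA per the submitters' processing notes. The version and settings of RMA, and the genome build, were not given in the sources used here. RMA brings the arrays to a shared distribution, so a change common to most genes would not be seen.

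Intensities were taken as log2(value + 1), leaving out 64 array controls, and 45037 probe sets were fitted with limma 3.58.1 in R 4.3.3 over all 12 arrays with 1 coefficient per line, on a prior of 4.65 and 8 residual degrees of freedom. Tests were two-sided with Benjamini-Hochberg adjustment over all probe sets, and an adjusted p under 0.05 was a call. The steps were tested on simulated data. The number of arrays limits the precision. The platform annotation gave 34945 probe sets 1 symbol, 932 several and 9160 none, and only the first were named. Members and gene lists were chosen with earlier results of these data known. Any of the 48 genes could be named, and from each further list at most the 4 called genes with the largest change per comparison.

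Sample letters were checked for pairing by correlating deviations from the line means. Same-letter arrays of B140H and B140P correlated at 0.587, 0.36 and 0.56, and arrays of different letters at -0.425 to -0.0449. The letters were therefore read as pairs there, from the data and not from the labels, but the main fit did not use the letters. Alternatives covered pseudocount, centring, normalization, probe set choice, brightness, variance prior, array weights, threshold, letter block and arrays left out.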

Additional observations from a re-analysis of the deposited data

Results flagged for a closer look

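For 6 replication genes the change in B140H against B140P differed from that in B117H against B117P by limma's test of the difference itself. These 6 are 12.5% of the 48, near the 10.4% of all genes called in that test and below the 17.3% of genes at least as bright as the dimmest replication gene. Gmnn changed by 0.28 in B140H and by -0.67 in B117H, a difference of 0.94 (adjusted p = 0.00442). Rfc2 changed by 0.94 in B140H and by 0.24 in B117H, a difference of 0.70 (0.00357). Cdc45 changed by 0.28 in B140H and by -0.30 in B117H, a difference of 0.58 (0.0194). Prim2 changed by -0.03 in B140H and by 0.84 in B117H, a difference of -0.87 (0.00705). Pole2 changed by -0.12 in B140H and by 0.57 in B117H, a difference of -0.69 (0.0058). Gins3 changed by 0.08 in B140H and by 0.55 in B117H, a difference of -0.47 (0.0489). By the next-brightest probe set the differences were 0.77 for Rfc2 (0.00367), -0.04 for Cdc45 (0.932), -0.97 for Prim2 (0.101), -0.37 for Pole2 (0.69) and -0.42 for Gins3 (0.422), while Gmnn has a single probe set.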

How the results depend on the processing

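Of 6480 values of single replication genes under the alternatives, 5951 kept direction and side of the threshold, 213 changed sign without being called in either fit, 203 lost a call, 113 gained one and 0 of the calls changed sign in limma. Leaving out single arrays gave 9 to 11 called genes in B117H, 1 to 6 in B140H (1 without B140P array A, when 4.13% of all genes were called, and 6 without B117P array A), 10 to 12 in the average, 4 to 6 in the difference and 11 to 15 between the parental lines. The shares of all genes called were 6.45% to 10.5% in B117H and 4.1% to 6.9% in B140H. They were 5.67% to 7.99% in the average, 7.96% to 10.3% in the difference and 19.7% to 25.3% between the parental lines. Leaving out all arrays of a letter, which leaves 2 per line, gave 6 (A), 2 (B) and 2 (C) in B117H, 1 each time in B140H, 5, 2 and 1 in the average, 1, 0 and 1 in the difference, and 8, 10 and 6 between the parental lines. Of all genes, in the same order, 5.61%, 4.45% and 3.23% were called in B117H and 2.69%, 1.95% and 2.08% in B140H. The shares were 3.81%, 2.37% and 2.17% in the average and 4.97%, 3.69% and 3.16% in the difference. Between the parental lines they were 18.3%, 16.7% and 14.8%. These fits use fewer arrays, and no other cause was tested. In B140H, where the main count was 5 and 6.56% of all genes were called, limma called 8 with brighter probe sets only (12.4% of all genes), 8 with an intensity trend and robust prior (7.34%), 8 with a pseudocount of 16 (7.48%), 9 on averaging all probe sets of a gene (7.87%), 1 with the B140 arrays alone (3.75%) and 1 at an adjusted p under 0.01 (3.46%), where the average gave 7 (4.15%). Array weights gave 16 in B117H, where the share of all genes called was 12.7% in place of 9.41%.

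With the letters as a replicate block the counts were 14 in B117H, 10 in B140H, 19 in the average, 10 in the difference and 18 between the parental lines. The shares of all genes called were higher under the block too, at 13.1%, 10%, 11.6%, 15.1% and 28.2%, in place of 9.41%, 6.56%, 7.86%, 10.4% and 23.8%. Same-letter arrays of B117H and B117P correlated at 0.555, 0.0278 and 0.392, and arrays of different letters at -0.505 to 0.332. The same letter was highest for every B117H array, but for array B only narrowly (0.0278 against 0.0114). The letters were not read as pairs in B117, which is less clear than in B140, and the block nevertheless covers the B117 arrays too. The alternatives were run on the replication genes, not on the further lists. With 3 arrays per line and no detection calls, changes well below the spread of single probe sets were not detectable, and a miss is not evidence of no change.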

Other observations

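Of 28 genes that control entry into S phase 3 rose and 4 fell in B117H, against 4.73% of all genes called higher and 4.68% called lower. There Skp2, which marks cell cycle inhibitors for degradation, fell by 1.28 on the log2 scale (limma adjusted p = 0.00198), cyclin E (Ccne1) by 0.96 (1.4e-04) and E2f3 by 0.86 (4.0e-04), while the pocket protein Rbl2 rose by 0.69 (2.3e-04). In B140H 4 rose and 2 fell, against 2.81% of all genes called higher and 3.75% called lower, with Ccne1 at 0.73 (0.00194), Ccnd1 at -0.69 (0.00152), Ccnd3 at 0.56 (0.015) and Tfdp2 at -0.51 (0.0358). Ccne1 averaged 10.56 in B140H against 9.83 in B140P, and 9.12 in B117H against 10.08 in B117P, and its B140 change exceeded its B117 change by 1.68 (3.5e-05). The median of the list was 0.17 in B140H and 0.04 in B117H.

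Of 23 measured genes of mitosis, 2 were called in B117H and 2 in B140H, shares close to the 9.41% and 6.56% of all genes called. Bub1 rose (0.63, limma adjusted p = 0.0246) and Cenpf fell (-0.39, 0.0294) in B117H, and Cenpe rose (0.56, 0.00376) and Ttk fell (-0.39, 0.0137) in B140H. Of 11 fork checkpoint genes, 2 were called in each line. Rad1, a subunit of the checkpoint clamp, fell in B117H (-1.34, 2.4e-05) and the Atr activator Etaa1 rose (0.37, 0.0497). In B140H the kinases Atr (-0.54, 0.00818) and Chek1 (-0.46, 0.0195) fell, both of which were higher in B140P than in B117P, by 1.12 and 0.53.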
